A study of Mus musculus with 2 samples.

Results

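Cd81, Cd34, Pi16, Dpp4, Has1, Pcolce2 and Ebf1 are 7 genes linked to adventitial fibroblasts, the connective tissue cells that sheathe vessels and the deep wall of the gut. They were taken by name, with earlier results of these data known. All 7 were listed among the 16098 genes shared by the tables of the colon (16381 genes) and the small intestine (18262 genes). For each gene the level, the share of positive cells and the separation of 2 fibroblast labels, CD81+ trophocytes and CD81- FBs, were measured in both tissues.

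Both libraries were made by droplet single-cell RNA sequencing of stroma from mice described as healthy and given no treatment. Viable cells lacking the immune marker CD45 and the epithelial marker Epcam had been sorted from digested tissue, after 60 min of digestion for the colon and 45 min for the small intestine. Each tissue had 1 library, so no difference below has a replicate check, and every interval covers counting error only. The number, strain, sex and age of the animals are not stated in the labels. Levels are given as CPM, the UMIs of a gene scaled by the summed UMIs of its cell type, where a UMI marks 1 captured RNA molecule. Such 3' counts are not divided by gene length, so they do not rank 1 gene against another.

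Trophocytes are CD81-expressing fibroblasts of the gut submucosa and adventitia known for supplying the epithelial stem cell niche with BMP inhibitors and R-spondins. Adventitial fibroblasts of many organs carry the surface glycoprotein CD34, the secreted peptidase inhibitor PI16 and the surface peptidase DPP4, and they are held to be a reserve from which other fibroblasts arise. CD81 is a tetraspanin, a membrane protein that organises partner proteins into patches. HAS1 makes hyaluronan at the plasma membrane, PCOLCE2 enhances removal of the C-terminal propeptide of fibrillar procollagens, and EBF1 is a DNA-binding factor of the B lymphocyte, adipocyte and stromal lineages.

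The deposited labels put 875 colon cells and 1913 small intestinal cells among the CD81+ trophocytes, and 3631 and 2823 cells among the CD81- FBs. The other labels compared were PDGFRa-hi SEMFs (1105 and 1109 cells), LECs (217 and 2498), BECs (53 and 524) and SMCs (125 and 468). In both libraries SMCs had the highest level of all 6 smooth muscle markers, and PDGFRa-hi SEMFs that of all 8 markers of Pdgfra-high fibroblasts. Of 6 lymphatic markers, 6 (colon) and 5 (small intestine) were highest in LECs, and of 7 blood endothelial markers, 7 and 5 were highest in BECs. Of 7 trophocyte markers, 5 were highest in CD81+ trophocytes in each library. That list includes the members Cd81, Cd34 and Pi16, so it is no check independent of them. Of 5 lamina propria fibroblast markers, 4 (colon) and 2 (small intestine) were highest in CD81- FBs, and the small intestinal SMC label summed to 9668 CPM of them, against 9151 CPM in CD81- FBs, with Adamdec1 alone at 9211 CPM. The fibroblast labels are named after CD81 and were made from these same cells, so the separation of the labels by these genes is a description, not a test. The colon library held 274 trophocytes with only Y-linked UMIs and 406 with only Xist UMIs, whereas 1584 of the 1913 small intestinal trophocytes had Y-linked UMIs, in a table that does not list Xist. There were 21 cell barcodes that occurred in both libraries.

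The genes lie on 6 chromosomes of the mouse assembly GRCm38 (mm10), in the GENCODE annotation. Cd81 spans chromosome 7, 143052739 to 143067934, Cd34 chromosome 1, 194938819 to 194961279, Pcolce2 chromosome 9, 95637601 to 95698096, and Ebf1 chromosome 11, 44617317 to 45008091, all on the plus strand. Pi16 (29317680 to 29330593, plus strand) and Has1 (17843323 to 17855205, minus strand) share chromosome 17, and Dpp4 lies on chromosome 2, 62330073 to 62412231, minus strand. No member overlapped another gene on its own strand. For Cd81, Cd34, Dpp4, Pcolce2 and Ebf1 a gene on the opposite strand is listed in the tables. Use of strand in the counting is not stated, and whether reads of such partners entered the members' counts was not tested.

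EBF1 binds a palindrome with the core CCCNNGGG, preceded by T and followed by A in its full form. Ebf1 itself was the member that parted the fibroblast labels most sharply in the colon, so the upstream stretches of the members that hold the core are shown. They come from RefSeq on GRCm38.p6, 5′ to 3′ on the gene's strand, and end before the gene body of RefSeq and GENCODE. Capitals mark matches to the palindrome or its core (on both strands), to a GC box (GGGCGG, either strand) or to a TATA box (TATAAA, gene strand).
Cd81, chr7:143052500-143052738, plus strand: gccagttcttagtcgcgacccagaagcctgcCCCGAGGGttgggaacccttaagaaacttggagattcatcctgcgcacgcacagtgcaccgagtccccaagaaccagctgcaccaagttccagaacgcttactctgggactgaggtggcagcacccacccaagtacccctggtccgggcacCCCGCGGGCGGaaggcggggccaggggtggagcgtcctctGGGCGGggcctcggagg
Pcolce2, chr9:95637378-95637600, plus strand: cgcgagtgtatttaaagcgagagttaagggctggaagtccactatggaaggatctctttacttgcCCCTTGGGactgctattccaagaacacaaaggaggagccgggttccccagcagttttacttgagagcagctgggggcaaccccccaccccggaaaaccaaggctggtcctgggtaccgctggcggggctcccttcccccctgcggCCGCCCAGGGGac
Dpp4, chr2:62412316-62412481, minus strand: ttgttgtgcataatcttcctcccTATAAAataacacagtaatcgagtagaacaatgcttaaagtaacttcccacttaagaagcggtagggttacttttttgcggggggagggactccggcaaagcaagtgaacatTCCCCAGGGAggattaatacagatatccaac

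The full palindrome was found in the window of 250 bases before the start of 1 member, Dpp4, as TCCCCAGGGA at bases 115 to 106 before the start. It occurs in 0.779% of all 32851 windows of that length. The core occurred 2 times each before Cd81 and Pcolce2 and 1 time within the Dpp4 palindrome, and it occurs in 11.8% of all windows. In Cd81 (the match nearer the start) and in Pcolce2 (likewise) the core overlaps a GC box, a motif present in 32.7% of windows, and the TATA box occurs in 7.59%. None of these letter matches is evidence of binding.

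Cd81, the gene behind the labels, stood at 585 CPM in colon trophocytes (95% Poisson interval 566 to 604) and 560.4 CPM in those of the small intestine (548.5 to 572.5). Colon CD81- FBs held 37.96 CPM (35.6 to 40.5) and small intestinal ones 8.14 CPM (6.94 to 9.48). The trophocyte levels of the tissues lay close together while those of the CD81- FBs lay 2.22 log2 units apart. At least 1 Cd81 UMI was found in 94.4% and 88.7% of trophocytes, against 13.7% and 2.87% of CD81- FBs. Cd81 was found in few SMCs (3.2% and 3.63%) and few PDGFRa-hi SEMFs (3.71% and 1.89%). Whether free RNA in the droplets gave these shares was not tested. The share in colon CD81- FBs lay above those of SMCs and SEMFs. That in small intestinal CD81- FBs lay between them, with a 95% interval (2.29% to 3.55%) that overlaps both of theirs. Median depths were 7186 and 7807 UMIs per trophocyte, 6697 and 6977 per CD81- FB, and 5526 and 5644 per SMC.

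Trophocytes did not have the highest Cd81 of the stroma. In the colon the highest of the 6 types was BECs, at 912 CPM (802 to 1034), then trophocytes, then LECs at 113 CPM (93.4 to 135). In the small intestine BECs stood at 603 CPM (571 to 636), an interval that overlaps that of trophocytes, followed by LECs at 242 CPM (233 to 251). Cd81 thus marked trophocytes among fibroblasts and was shared with endothelium.

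Ebf1 followed the same layout over the cell types, as the plot of levels and detection shows. It reached 1805 CPM in colon trophocytes (1772 to 1838), where 95.9% of cells were positive, and 1074 CPM in small intestinal trophocytes (1058 to 1091), where 79.6% were. CD81- FBs held 22.9 CPM (21.1 to 24.9) and 134.8 CPM (129.8 to 140.0), with 9.14% and 16.6% positive cells. PDGFRa-hi SEMFs had 4.80% and 17.5% positive cells and SMCs 4.8% and 5.77%, so the share in small intestinal CD81- FBs was no higher than in the SEMFs of that tissue, although their CPM was (63.5 in SEMFs). Colon BECs held 860.3 CPM (753 to 978), and small intestinal BECs, at 1573 CPM (1521 to 1626), exceeded the trophocytes of their tissue. LECs held 442 CPM (403 to 484) and 519 CPM (506 to 532). Over the 12 levels (6 types in each of 2 libraries), log2(CPM + 1) of Cd81 and Ebf1 gave a Pearson r of 0.881, a description, since the levels share libraries.

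**Figure D1:**
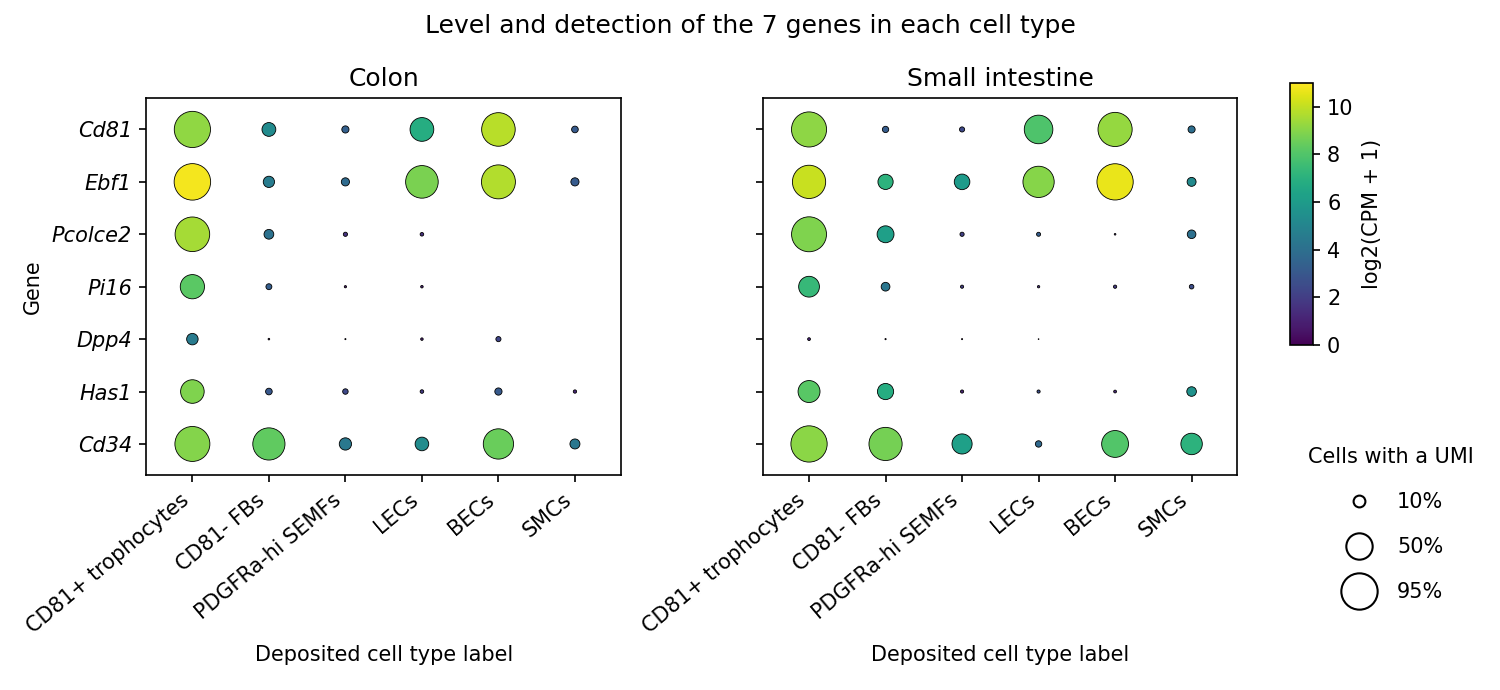
Level and detection of the 7 genes in each of 6 deposited cell types, colon left and small intestine right. Colour gives log2(CPM + 1) and the area of a dot the percentage of cells with at least 1 UMI. Cd81 and Ebf1 are high in trophocytes, BECs and LECs, Pcolce2, Pi16 and Has1 are highest in trophocytes, and Cd34 is high in both trophocytes and CD81- FBs.

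Pcolce2, the procollagen enhancer, was highest in trophocytes in both tissues. It stood at 729.6 CPM in colon trophocytes (709 to 751) and 462 CPM in small intestinal trophocytes (451 to 473), with 86.2% and 87.9% of cells positive. CD81- FBs held 16.4 CPM (14.8 to 18.1) and 71.1 CPM (67.5 to 74.9), with 6.86% and 20.6% of cells positive. In LECs 0.922% and 1.16% of cells had a Pcolce2 UMI, at median depths of 4545 and 4118 UMIs, so the CD81- FB shares lay above this level in both tissues. Small intestinal SMCs held 15.3 CPM (11.1 to 20.6) in 5.34% of cells, close to the colon CD81- FBs. No Pcolce2 UMI was found among 53 colon BECs or 125 colon SMCs, counts of 0 that allow up to 5.66% and 2.40% of cells with a UMI.

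Pi16, 1 of the genes by which adventitial fibroblasts are usually named, was found in a minority of trophocytes. It stood at 291 CPM in colon trophocytes (278 to 305) and 163 CPM in small intestinal ones (156 to 169), with 42.3% and 31.1% of cells positive. CD81- FBs held 8.34 CPM (7.24 to 9.56) and 19.2 CPM (17.4 to 21.3), with 2.53% and 5.49% of cells positive, against 0.461% and 0.400% of LECs. A single colon trophocyte carried up to 58 Pi16 UMIs and a single small intestinal one up to 32.

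Dpp4 was the rarest member. Its 142 UMIs in colon trophocytes (22.3 CPM, 18.8 to 26.3) came from 9.49% of the cells. In small intestinal trophocytes only 17 UMIs were found (1.13 CPM, 0.659 to 1.81), in 0.575% of cells. CD81- FBs held 8 UMIs in the colon and 3 in the small intestine. The counting intervals of the 2 labels did not overlap in either tissue, but the small intestinal ratio rests on these 17 and 3 UMIs (log2 2.93, 1.14 to 5.34).

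Has1 was the member whose level in CD81- FBs differed most between the tissues. Colon trophocytes held 467 CPM (450 to 484), small intestinal ones 284 CPM (276 to 293), with 40% and 34.7% of cells positive. CD81- FBs of the colon held 7.002 CPM (5.997 to 8.13), those of the small intestine 112 CPM (108 to 117), with 3.17% and 18.9% positive cells, against 0.922% and 0.721% of LECs. Small intestinal SMCs also held 47.75 CPM (40.01 to 56.6), in 6.62% of cells, with 35 of their 134 UMIs in 1 cell.

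Cd34 was the member least tied to the trophocyte label. Its level was 498 CPM in colon trophocytes (481 to 516) and 543 CPM in small intestinal ones (531 to 555), and CD81- FBs 318 CPM (311 to 325) and 419 CPM (410.3 to 428.3). A Cd34 UMI was found in 88.0% and 94.7% of trophocytes and in 74.6% and 79.1% of CD81- FBs, against 10.9% and 29.1% of PDGFRa-hi SEMFs and 13.4% and 2.96% of LECs. BECs, which are known to carry CD34, held 360 CPM (292 to 439) and 254.5 CPM (234 to 277).

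Set against each other in trophocytes and CD81- FBs, 6 of the 7 members were at least 2-fold higher in colon trophocytes, where 4.69% of the 11504 genes with at least 100 UMIs passed that fold. In the small intestine 5 of the 6 members with enough UMIs did, against 4.38% of 11573 genes. No member was at least 2-fold lower in trophocytes, as 8.41% (colon) and 6.83% (small intestine) of genes were. The median log2 ratio of these members was 5.48 in the colon and 2.85 in the small intestine, beside −0.10 and −0.22 for all genes. How the labels were drawn is not stated, and the members were chosen with earlier results of these data known. These counts therefore describe the labels and support nothing further.

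The sizes ran in a different order in the tissues. In the colon the log2 ratio of trophocytes over CD81- FBs was 6.30 for Ebf1 (95% interval 6.18 to 6.42), 6.11 for Dpp4 (5.09 to 7.35), 6.06 for Has1 (5.84 to 6.29), 5.48 for Pcolce2 (5.33 to 5.63), 5.13 for Pi16 (4.92 to 5.34) and 3.95 for Cd81 (3.84 to 4.05). In the small intestine it was 6.11 for Cd81 (5.88 to 6.34), 3.08 for Pi16 (2.92 to 3.24), 2.99 for Ebf1 (2.93 to 3.05), 2.70 for Pcolce2 (2.62 to 2.78) and 1.34 for Has1 (1.27 to 1.42). Cd81 had the smallest ratio of the 6 in the colon and the largest of the members in the small intestine. Cd34 stayed below 2-fold in both, at 0.65 (0.59 to 0.71) and 0.37 (0.33 to 0.42).

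A large ratio did not make a gene a sharp divider of single cells. Sharpness was measured as the area under the curve, the probability that a random trophocyte has a higher CPM than a random CD81- FB, with ties shared equally. In the colon Ebf1 had the highest area of all 11504 genes, 0.972, Cd81 the second, 0.945, and Pcolce2 the fourth, 0.919. In the small intestine Cd81 was at rank 3 of 11573 genes (0.937), Pcolce2 at rank 13 (0.872) and Ebf1 at rank 22 (0.839). The median gene had an area of 0.498 in the colon and 0.495 in the small intestine, and 15 and 34 genes reached 0.8. These ranks and counts cover only genes higher in trophocytes. An area near 0 divides the labels as sharply, from the other side. Adamdec1, lower in trophocytes, had areas of 0.054 in the colon and 0.0085 in the small intestine.

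The other members divided single cells less well. Pi16 reached 0.700 and 0.630, Has1 0.688 and 0.585, and Dpp4 0.546 and 0.502, and most trophocytes had no UMI of them. Trophocytes made up 19.4% of the cells of the 2 labels in the colon and 40.4% in the small intestine. Among cells with a Pi16 UMI they made up 80.1% and 79.3%, among those with a Has1 UMI 75.3% and 55.5%, and among those with a Dpp4 UMI in the colon 92.2%. Cd34, found in most cells of both labels, reached areas of 0.646 and 0.607, and trophocytes made up 22.1% and 44.8% of Cd34-positive cells, close to their share of all cells. The 5 genes with the highest areas besides members included Prss23, a secreted protease (0.921 in the colon, 0.975 in the small intestine), Dcn, which encodes the proteoglycan decorin (0.919 and 0.896), and, in the small intestine, Ogn (0.948) and Ackr4 (0.919).

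**Figure D2:**
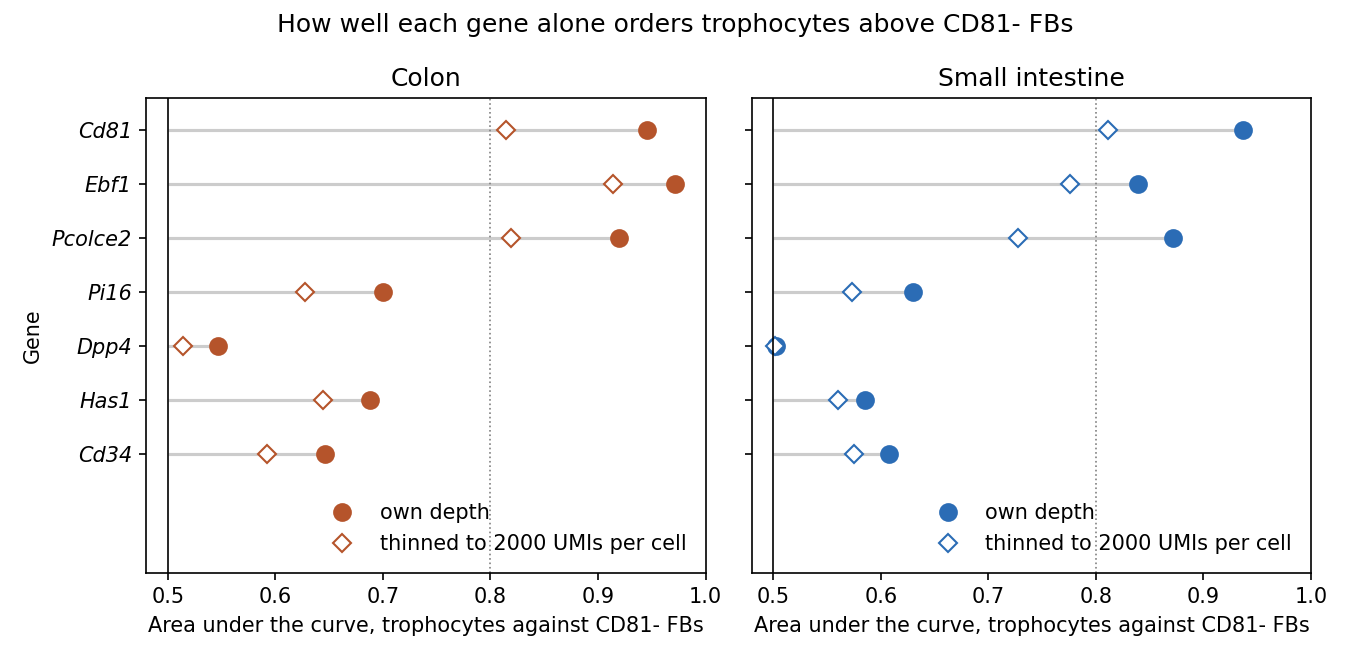
Area under the curve for each gene alone, trophocytes against CD81- FBs, in the colon (left) and the small intestine (right). Filled circles are at each cell's own depth and open diamonds after thinning every cell to 2000 UMIs, and the dotted line marks 0.8. Ebf1, Cd81 and Pcolce2 lie above 0.8 at own depth in both tissues, and in the small intestine only Cd81 stays above it after thinning.

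The areas fell when every cell was thinned to 2000 UMIs, well below the median depth of both labels. Raw UMIs, not scaled for depth, gave almost the areas from CPM: colon first, 0.971 and 0.839 for Ebf1, 0.944 and 0.937 for Cd81, and 0.918 and 0.873 for Pcolce2. After thinning, Ebf1 kept an area of 0.914 in the colon and 0.776 in the small intestine. Cd81 fell to 0.814 and 0.812, and Pcolce2 to 0.819 and 0.727. Shares fell likewise: a Cd81 UMI was left in 67.5% of colon trophocytes and 6.11% of CD81- FBs.

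Asking for at least 3 UMIs in place of 1 left fewer CD81- FBs positive but also lost trophocytes, and for Ebf1, Cd81 and Pcolce2 the gap in percentage between the labels narrowed in both tissues. At least 3 Ebf1 UMIs were found in 82.1% of colon trophocytes and 1.24% of colon CD81- FBs, and in 64.2% and 9.64% of those in the small intestine. At least 3 Cd81 UMIs were found in 67.7% and 3.03% in the colon and in 69.4% and 0.744% in the small intestine. For Pcolce2 the shares were 62.6% and 1.05% in the colon and 58.0% and 7.19% in the small intestine. At that threshold the gap was widest for Ebf1 in the colon and for Cd81 in the small intestine.

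**Figure D3:**
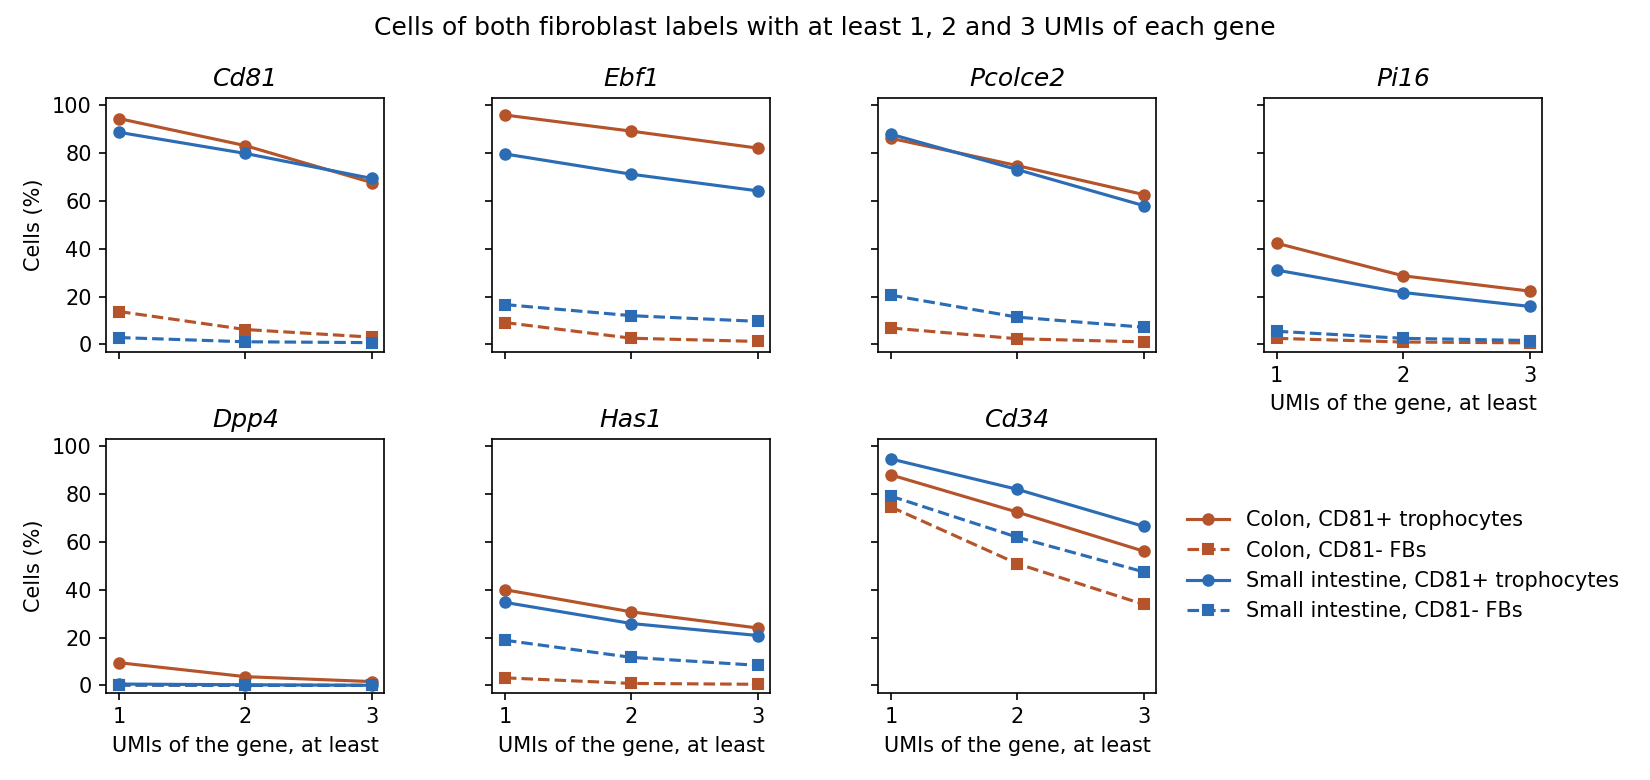
Percentage of cells with at least 1, 2 and 3 UMIs of each gene, for trophocytes (solid lines, circles) and CD81- FBs (dashed lines, squares) of the colon (brown) and the small intestine (blue). The lines of the labels are far apart for Cd81, Ebf1 and Pcolce2 and closest in proportion for Cd34.

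Counting members per cell gave a further view of the border. Thinned to 2000 UMIs, at least 3 of the 7 members were detected in 74.0% of colon trophocytes and 60.4% of small intestinal trophocytes. The same held for 1.33% and 6.64% of CD81- FBs, 0.274% and 0.185% of PDGFRa-hi SEMFs, and 32.0% and 21.8% of BECs. At least 4 members were found in 47.6% and 28.8% of trophocytes and in 0.167% and 1.55% of CD81- FBs, against 0.449% of small intestinal BECs.

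Between the tissues, trophocytes and CD81- FBs moved differently. In trophocytes 1 of the 7 members, Dpp4, was at least 2-fold higher in the colon, where 4.23% of 10454 genes were, and 0 members were at least 2-fold lower, where 8.24% of genes were. In CD81- FBs 1 of the 6 members with enough UMIs, Cd81, was at least 2-fold higher in the colon (6.46% of 12194 genes), and 4, namely Pi16, Has1, Pcolce2 and Ebf1, were at least 2-fold lower (10.4% of genes). Tissue and library cannot be told apart here, and the dissociation times also differed. In the colon 31.3% of trophocytes had Y-linked but no Xist UMIs. In the small intestine 82.8% had Y-linked UMIs, but Xist is not listed there, so these shares are unlike measures. Split by Y-linked and Xist UMIs, colon trophocytes held 15.3 CPM of Dpp4 (Y-linked only, 32 UMIs) or 30.5 CPM (Xist only, 95 UMIs). The small intestine has no matched split, and the part of sex in the tissue ratios was not tested.

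In trophocytes the log2 ratio of colon over small intestine was 4.30 for Dpp4 (3.57 to 5.12), 0.84 for Pi16 (0.75 to 0.93), 0.75 for Ebf1 (0.71 to 0.78), 0.72 for Has1 (0.65 to 0.78) and 0.66 for Pcolce2 (0.61 to 0.71). Cd81, at 0.06 (0.01 to 0.12), and Cd34, at −0.12 (−0.18 to −0.06), lay near the median gene, at −0.11. In CD81- FBs the ratio was 2.22 for Cd81 (1.98 to 2.47), −4.00 for Has1 (−4.23 to −3.78), −2.56 for Ebf1 (−2.69 to −2.42), −2.12 for Pcolce2 (−2.28 to −1.96), −1.21 for Pi16 (−1.46 to −0.96) and −0.40 for Cd34 (−0.44 to −0.35), with the median gene at −0.22. Pi16, Has1, Pcolce2 and Ebf1 were therefore higher in the colon among trophocytes and lower in the colon among CD81- FBs. Summed markers also differed between the CD81- FB labels: colon first, smooth muscle markers came to 141 and 658 CPM and pericyte markers to 179 and 919 CPM. The difference between the pericyte sums followed mainly Rgs5, at 34.2 and 779 CPM in CD81- FBs without a Cd81 UMI. Pdgfrb, another pericyte marker, stood at 120 and 95.3 CPM in those cells, and at 90.2 and 104 CPM in CD81- FBs with a Cd81 UMI. The part of smooth muscle and pericyte markers in these ratios was not tested.

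**Figure D4:**
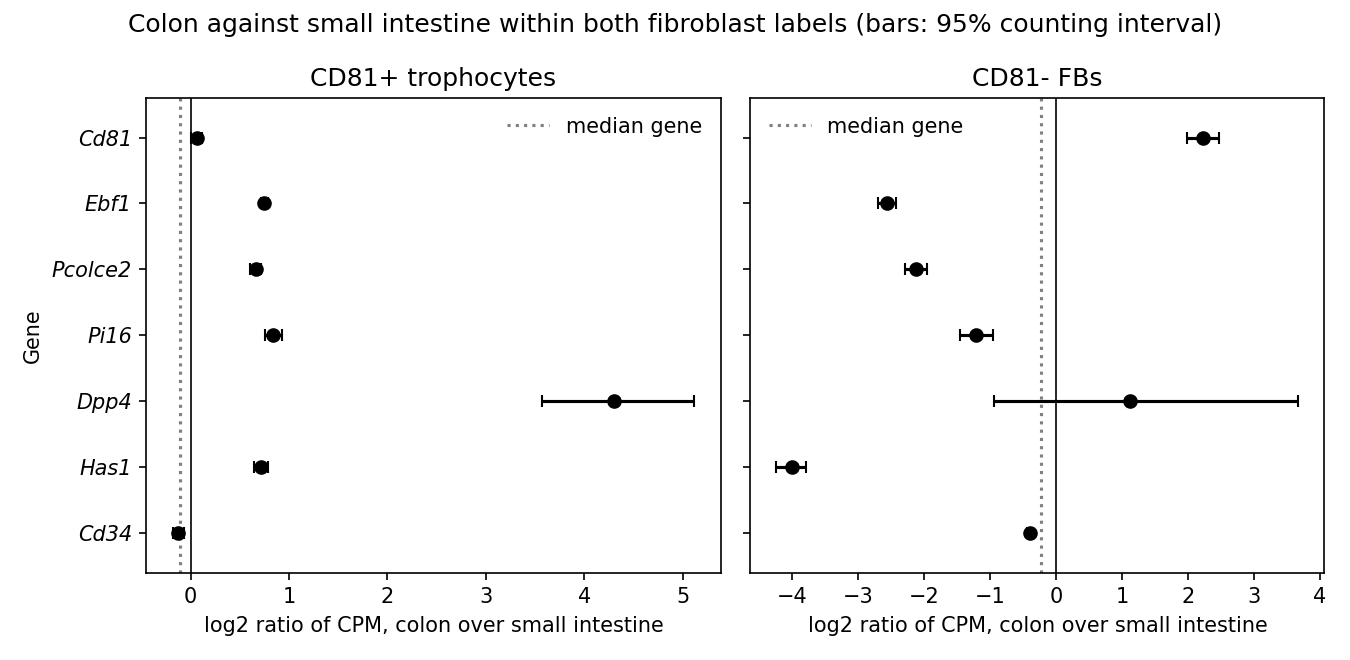
Log2 ratio of CPM, colon over small intestine, for each gene in trophocytes (left) and CD81- FBs (right), with 95% counting intervals and the median gene as a dotted line. The axes differ in range. Dpp4 stands apart in trophocytes at 4.30, and Cd81 is the only member with enough UMIs to the right of 0 in CD81- FBs.

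Within the trophocyte label, cells with a Pi16 UMI had another profile than cells without one. There were 370 with and 505 without in the colon, and 594 with and 1319 without in the small intestine. Grem1, the BMP inhibitor known as a trophocyte product, stood at 229 CPM in colon cells with Pi16 and 871 CPM in those without. The small intestinal values were 862 and 1519 CPM. Has1 went the other way, at 665 against 295.5 CPM in colon cells and 530.1 against 159.7 CPM in those of the small intestine. Dpp4 was at 37.9 against 8.80 CPM in the colon. Ackr4, another trophocyte gene, shifted less across this split than Grem1 did. Its log2 ratio of Pi16-positive over Pi16-negative trophocytes was −0.34 (−0.47 to −0.21) for the colon library. For the small intestinal library that ratio of Ackr4 was 0.05 (−0.01 to 0.11), so the lower Grem1 was not shared by Ackr4 there.

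The remaining members differed less across that split. The log2 ratio of Pi16-positive over Pi16-negative trophocytes was 0.43 and 0.68 for Ebf1, 0.41 and 0.57 for Cd34, and 0.30 and 0.42 for Pcolce2, colon first. For Cd81 it was 0.09 (−0.003 to 0.18) in the colon and 0.24 (0.18 to 0.30) in the small intestine. Of the adventitial list only 3 genes were measured in this split, and all 3 were higher with Pi16 in both tissues: Cd55, a complement regulator, at 1.16 and 1.40, Ly6c1 at 1.05 and 1.77, and the semaphorin Sema3c at 0.95 and 0.94. Positive cells were deeper in both tissues (median 7778 against 6776 UMIs in the colon and 8489 against 7497 in the small intestine). The pericyte marker Rgs5 was lower in them, at 9.13 against 62.7 CPM (colon) and 40.3 against 170.9 CPM (small intestine). Pdgfrb, another pericyte marker, was nearly level, at 80.2 against 81.8 CPM (colon) and 56.7 against 58.9 CPM (small intestine). The part of depth and of other cell types in this split was not tested.

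**Figure D5:**
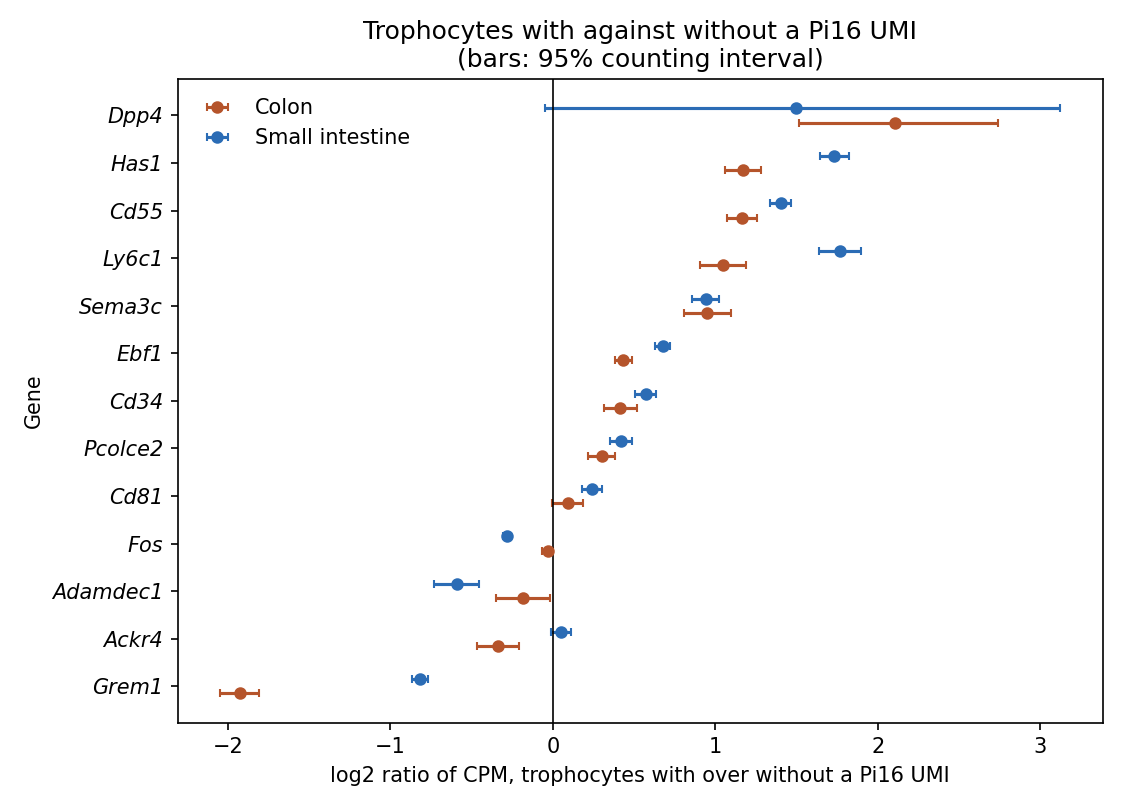
Log2 ratio of CPM in trophocytes with over those without a Pi16 UMI, colon (brown) and small intestine (blue), with 95% counting intervals, for members and 7 other genes. Has1, Cd55, Ly6c1 and Sema3c lie to the right and Grem1 to the left in both tissues, with Cd81 close to 0, and the interval of small intestinal Dpp4 (10 and 7 UMIs) crosses 0.

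Pairs of members were also counted in single cells. Thinned to 2000 UMIs, Pi16 and Has1 were found together in 99 colon trophocytes, 1.46 times the product of their shares, and in 124 small intestinal trophocytes, 1.72 times. Cd81 and Has1, by contrast, were at 0.978 and 0.956 times, and Cd81 and Ebf1 at 0.989 and 0.963 times. At own depth 59 of the 83 Dpp4-positive colon trophocytes, 71.1%, had a Pi16 UMI, against 42.3% of all trophocytes.

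Some CD81- FBs carried several members. In the small intestine 470 of 2823 had an Ebf1 UMI, and these held 231 CPM of Pcolce2 against 35.45 CPM in the rest (log2 ratio 2.70, 2.55 to 2.86). They also held 130.0 against 16.3 CPM of Ackr4, a trophocyte gene, 48.3 against 12.7 CPM of Pi16, and 4252 against 9072 CPM of Adamdec1, which marks lamina propria fibroblasts. Pcolce2 and Ebf1 were found together in 118 thinned cells, 4.07 times the product of their shares. Pdgfra, a fibroblast gene, was at 391 CPM in these cells and 329.5 CPM in the others, while the mural markers Rgs5 (593 against 819 CPM) and Acta2 (147 against 385 CPM) were lower in them.

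In the colon 499 of 3631 CD81- FBs had a Cd81 UMI. These held 60.4 against 16.8 CPM of Ebf1, 45.0 against 11.7 CPM of Pcolce2 and 25.5 against 5.515 CPM of Pi16. Adamdec1 stood at 2532 CPM in them and at 6114 CPM in the rest. Trophocytes were split by Cd81 as well. The 217 small intestinal trophocytes without a Cd81 UMI held 1643 CPM of Ebf1, against 1012 CPM in the 1696 with one. They also held 356 against 126 CPM of Adamdec1, at a median of 6630 against 7892 UMIs. In the colon the 49 trophocytes without a Cd81 UMI, at a median of 2856 against 7311 UMIs, had less Ebf1 (1279 against 1822 CPM) and likewise more Adamdec1 (827 against 169 CPM). These levels are sums over groups of cells, so they do not show whether single cells were mixed. The part of depth, doublets and free RNA in them was not tested.

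The genes with the most similar levels over the 12 values were found by Pearson r of log2(CPM + 1) among 11749 genes, as a description. Cd81 was closest to Cdon (0.94) and Hspa8 (0.93), and Ebf1 to Cmah (0.95) and to Tek, the endothelial angiopoietin receptor (0.93). Pi16 and Pcolce2 were closest to each other (0.98) and to G530011O06Rik (0.98 and 0.97), and Has1 was closest to Adgrg2 (0.95) and Stmn4 (0.94). Cd34 was closest to Mgp, an inhibitor of calcification (0.95), and Gda (0.94). Dpp4 had too few UMIs in the small intestine for this comparison.

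Other genes of the adventitial state were more often higher than lower in trophocytes. Of 24 genes of an adventitial list with enough UMIs, 14 were at least 2-fold higher and 2 lower in colon trophocytes than in CD81- FBs, and 8 were higher and 3 lower in the small intestine, with median log2 ratios of 1.22 and 0.59. For these and the lists below, the shares of all genes were 4.69% higher and 8.41% lower in the colon, and 4.38% and 6.83% in the small intestine. Higher in both were Ly6c1, Anxa3, Efhd1, Igfbp6, Fap, Gfpt2, Adgrd1 and Col14a1, for example Gfpt2, which feeds the hexosamine pathway (3.22 and 2.34), and Igfbp6, which binds insulin-like growth factors (1.94 and 1.82). Procr and Col15a1 were lower in both. Limch1, named after its values were seen, differed in direction, at 3.30 in the colon and −1.82 in the small intestine.

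The members' own families were mixed. Of the tetraspanins and CD81 partners with enough UMIs, 2 of 18 were higher and 4 of 18 lower in colon trophocytes, and 0 of 16 and 2 of 16 in the small intestine. Tspan8, named after its values were seen, had the most negative colon ratio of them (−5.34), and Cd151, a tetraspanin partner of integrins, was higher there (1.10). Cd63 (−0.33 and −0.10) and Ifitm3 (−0.08 and −0.02) were nearly level, and Cd82 was lower in both (−1.52 and −2.13). Among relatives of Dpp4, Fap, its closest homologue, was higher in both (2.00 and 1.89). Pcolce, the paralogue of Pcolce2, was at 0.06 and 0.84, and none of 6 procollagen-processing genes and substrates passed 2-fold in either tissue.

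For hyaluronan, Ugdh, which makes a precursor sugar (1.46 and 1.25), and Tnfaip6, which links proteins to hyaluronan (1.75 and 1.12), were higher in trophocytes of both tissues, and the hyaluronan-binding proteoglycan Vcan was lower (−1.145 and −1.59). Of 9 genes of that list with enough UMIs, 2 were higher and 2 lower in each tissue. Among EBF factors and partners 5 of 8 were higher and 2 lower in the colon, and 4 of 7 higher and 1 lower in the small intestine. Ebf2 (4.44 and 1.63), Zfp423 (1.23 and 1.31) and Klf4 (1.35 and 1.38) were higher in both, Ebf3 was higher in the colon (5.14, from 100 and 11 UMIs), and Tcf21, a fibroblast lineage factor, was lower in both (−2.46 and −1.30).

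Immediate early and stress genes moved with the trophocyte label too. Of 12 such genes, 9 were at least 2-fold higher in colon trophocytes and 12 in small intestinal trophocytes, for example Fos (1.49 and 1.82) and Egr1 (2.04 and 1.52), and their part in the members' ratios was not tested. Mesothelial markers listed in the tables (6 of 10) summed to 12.7 and 4.32 CPM in trophocytes, with Upk1b at 0 in both tissues and Krt8, Krt18 and Krt19 at 0 in the colon. Immune markers summed to 2.83 and 5.59 CPM, epithelial markers to 7.70 and 4.52 CPM, and blood endothelial markers to 43.3 and 13.0 CPM in trophocytes.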

How the data were processed

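Cells of 1 colon and 1 small intestine library were counted with Cell Ranger 7.1.0 against mm10 and handled in Seurat 4, per the submitters' processing notes. The raw UMI counts per gene and cell that the authors deposited were used for all main values. The deposited natural log table equalled the natural log of 1 plus 10000 UMIs per UMI of the cell, within 1e-06, and served 1 alternative. Cell type labels are the authors' deposited ones, how they were named is not stated in the file headers, and capillary, arterial and venous endothelial labels were joined as BECs. The libraries held 6018 and 9359 cells, 40684070 and 58134526 UMIs, and a median of 6598 (1502 to 25718) and 5943 (820 to 19886) UMIs per cell.

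UMIs were summed per label and library and given as CPM. Levels carry exact Poisson, shares Clopper-Pearson and ratios exact conditional binomial 95% intervals, with a floor of 3 counts for a count of 0. Cells are not replicates, so no test was run and no p-value is given. Ratios were ranked and counted for genes with at least 100 UMIs in both groups together (for tissues, in both libraries together). Types with under 50 cells in a library were left out, and the search for alike genes left out mitochondrial, ribosomal, haemoglobin, immunoglobulin and sex-linked genes. Named besides the members were the 2 genes most alike to each member, the 5 with the highest area under the curve per library, and, from each list, the genes highest in trophocytes or past 2-fold in both libraries. Tspan8, past 2-fold in the colon only, was named for its ratio outside this rule. Cd151 and Ebf3 also passed 2-fold in the colon only. The members and lists were chosen with earlier results of these data known. Doublets were not removed: Scrublet in scanpy 1.11.5 marked 0.0166% and 0.908% of cells, too few in the colon for use, and whether doublets had been removed earlier is not stated. The interval and area computations were tested on simulated data. Of the symbols, 98.7% and 98.4% were found in GENCODE. Python 3.11.15, numpy 2.4.6, pandas 2.3.3 and scipy 1.17.1 were used.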

Additional observations from a re-analysis of the deposited data

Results flagged for a closer look

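Members were also found in labels too small to enter the comparisons, above the 3 UMIs that a count of 0 allows. The 8 colon cells labelled Pericytes held 2739.65 CPM of Ebf1 (95 UMIs) and 346.1 CPM of Cd81 (12 UMIs). The 24 small intestinal cells labelled Proliferating held 245.9 CPM of Cd81 (54 UMIs), 273.3 CPM of Ebf1 (60 UMIs) and 100.2 CPM of Cd34 (22 UMIs). In the colon label 1 cell held 66.7% of the Cd81 UMIs and 42.1% of the Ebf1 UMIs. In the small intestinal label the top cell held 14.8% of the Cd81, 13.3% of the Ebf1 and 45.5% of the Cd34 UMIs.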

How the results depend on the processing

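Of 112 log2 ratios of trophocytes over CD81- FBs recomputed under 9 alternatives, none changed sign, but with means of the deposited natural log values, which average over cells without a UMI, members at least 2-fold higher numbered 4 instead of 6 in the colon and 3 instead of 5 in the small intestine. The calls lost were Dpp4 (0.13) and Pi16 (0.97) in the colon and Pi16 (0.60) and Has1 (0.48) in the small intestine. Members at least 2-fold higher in colon than in small intestinal trophocytes rose from 1 to 2 with colon cells holding only Y-linked UMIs (Has1 at 1.06) and with totals lacking mitochondrial, ribosomal and the 20 most abundant other genes (Pi16 at 1.01). Under those totals the tissue ratio of Cd34 in trophocytes reversed, to 0.045. Thinning to 2000 UMIs left 1 instead of 3 members with an area of at least 0.8 in the small intestine. With a pseudocount of 10 CPM, 11 of 12 pairs of a member and its closest genes were the same. No paired analysis was possible because each tissue has 1 library. Leaving out fibroblasts with an endothelial, immune or epithelial marker UMI, or the 6% of cells with the highest doublet scores, moved no count of members called higher. The tissue ratio of Pi16 in CD81- FBs ranged from −1.46 to −0.80 over the alternatives. Its call as 2-fold lower in the colon was therefore lost under at least 1 of them. Outside their main counting intervals fell 39 of the 112 trophocyte ratios and 35 of 110 tissue ratios, besides the 1 that reversed. Depth limits Dpp4 most: its 17 and 3 UMIs in small intestinal trophocytes and CD81- FBs give a wide interval for their ratio.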
